A study of Mus musculus with 2 samples.

Results

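Expression of Gpnmb and 9 other genes linked to lipid-associated macrophages was described in single cells from subcutaneous mouse tumours. The 10 genes, of 32285 listed in the deposited files, were Gpnmb, Trem2, Spp1, Fabp5, Lpl, Apoe, Cd9, Lgals3, Plin2 and Cd36. They were matched by symbol and chosen with earlier results of the same libraries in view, so the values below are descriptions and no test was run on them. The tumours came from CMT167R cells, a line labelled as resistant to anti-PD1 and derived, by its name, from the lung carcinoma line CMT167. In both groups 1000000 cells with the genotype label WT were injected under the skin of C57BL/6 mice. The control group received solvent, and the treated group received a compound called PKCi in the labels, given daily by intraperitoneal injection at 3 mg/kg. Tumours were collected once those of the control mice had grown to 400 mm3, and the labels state that the groups then differed in volume. There was 1 library per treatment, the number of mice behind each is not given in the sources used here, and treatment, tumour size and library cannot be told apart.

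Lipid-associated macrophages take up lipid and cell debris, and were described in fatty tissue, fatty liver, atherosclerotic plaques and tumours. TREM2 is a surface receptor for lipids and lipoproteins that signals through the adaptor TYROBP, and CD36 is a scavenger receptor that brings in fatty acids and oxidised lipoproteins. Lipoprotein lipase (Lpl) frees fatty acids from lipoproteins, FABP5 carries fatty acids inside the cell, PLIN2 coats lipid droplets, and apolipoprotein E (Apoe) accepts cholesterol that leaves the cell. Osteopontin (Spp1) and galectin-3 (Lgals3) are secreted proteins, CD9 is a tetraspanin of the cell surface and of vesicles, and GPNMB is a glycoprotein of lysosomes and the cell surface. The Gpnmb gene is a known target of the MITF and TFE family of transcription factors, which also drive lysosome genes.

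The proximal promoters of 4 of the genes are shown because Gpnmb, Lgals3 and Plin2 were lower in the PKCi library in both macrophage-like and monocyte-like cells, while Trem2 was close to level in the latter. Each run is the 250 bases before the RefSeq transcript start in GRCm38.p6, read 5′ to 3′ on the strand of the gene. Capitals mark a match to one of the motifs searched on both strands.
Gpnmb, chr6:49036268-49036517, plus strand: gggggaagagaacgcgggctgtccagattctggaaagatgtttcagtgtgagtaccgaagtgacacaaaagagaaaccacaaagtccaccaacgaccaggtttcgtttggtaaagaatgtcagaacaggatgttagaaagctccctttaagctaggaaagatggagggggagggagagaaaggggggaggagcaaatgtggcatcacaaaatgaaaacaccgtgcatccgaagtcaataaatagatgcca
Lgals3, chr14:47373610-47373859, plus strand: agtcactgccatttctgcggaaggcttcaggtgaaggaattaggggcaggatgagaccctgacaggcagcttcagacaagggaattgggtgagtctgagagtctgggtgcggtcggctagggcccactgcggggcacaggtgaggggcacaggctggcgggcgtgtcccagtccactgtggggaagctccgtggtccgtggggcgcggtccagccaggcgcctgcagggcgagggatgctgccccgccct
Plin2, chr4:86670060-86670309, minus strand: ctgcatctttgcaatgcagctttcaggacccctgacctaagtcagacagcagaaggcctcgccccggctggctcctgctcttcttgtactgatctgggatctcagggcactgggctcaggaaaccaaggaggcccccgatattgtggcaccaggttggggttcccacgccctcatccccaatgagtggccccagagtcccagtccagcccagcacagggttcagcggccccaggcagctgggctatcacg
Trem2, chr17:48346151-48346400, plus strand: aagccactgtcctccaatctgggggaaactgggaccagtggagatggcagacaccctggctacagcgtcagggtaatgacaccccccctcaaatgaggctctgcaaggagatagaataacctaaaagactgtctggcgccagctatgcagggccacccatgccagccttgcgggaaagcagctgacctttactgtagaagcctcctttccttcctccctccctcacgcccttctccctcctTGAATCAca
The motifs searched were CACGTG and TCATGTG for MITF and TFE factors, TGANTCA for AP-1, AGGTCANAGGTCA for PPAR and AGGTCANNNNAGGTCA for LXR. Of 32851 promoters of the same length in the RefSeq table, these were held by 6.02%, 3.25%, 6.75%, 0.0335% and 0.0152%, in that order. The table held 8 of the 10 genes, all but Fabp5 and Lpl, and the only match among their promoters was TGAATCA in the Trem2 promoter, 9 bases before the start. The RefSeq start of Lgals3 lies inside the gene as GENCODE draws it. A match is a string of letters and no record of binding, and no match says only that the letters are not in this window.

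Per GENCODE vM21 (GRCm38), all 10 genes were protein coding. Gpnmb lies on chromosome 6 from 49036546 to 49070929 on the plus strand, and Trem2 on chromosome 17 from 48346401 to 48354147. Cd36, on chromosome 5 from 17781690 to 17888801 on the minus strand, is the longest of the 10 at 107112 bases. Related gene models named Fabp5l2 and Cd9-ps stand in the same annotation, so reads shared with them make the levels of Fabp5 and Cd9 less certain.

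Totals were 222641855 unique molecular identifiers (UMIs, each the count of 1 RNA molecule) for the control and 229219749 for the PKCi library. After filtering, 6269 control and 7078 PKCi cells were kept, with medians of 32992 and 29550.5 UMIs, and 20 barcodes occurred in both libraries. Cells were clustered without the 10 genes and the related lists. The main population, with Krt8 and no immune or stromal profile, made up 4840 control and 5338 PKCi cells. Monocyte-like cells numbered 499 and 477, macrophage-like cells 226 and 401, and neutrophil-like cells 294 and 187. Small classes called dendritic-like, T-like, NK-like, endothelial-like and fibroblast-like held between 21 and 119 cells per library. Macrophage-like cells carried all 8 macrophage markers searched (C1qa, Adgre1 and Mrc1 among them) at 50 CPM or more in both libraries, where CPM is UMIs per 1e6 UMIs of the class. These summed to 10637 CPM in the control and 9901 CPM in the PKCi library. Their median depth was 16672 UMIs in control and 12004 UMIs in PKCi cells.

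Gpnmb was lower in the macrophage-like and monocyte-like cells of the PKCi library and higher in its main population. In macrophage-like cells its level was 474 CPM in control cells (1958 UMIs, 95% interval 453 to 495) and 72.45 CPM in PKCi cells (379 UMIs, 65.3 to 80.1). The PKCi/control ratio was 0.153, with an interval from 0.137 to 0.171. All intervals given here are exact Poisson or binomial intervals at 95%. They take each UMI as an independent event, so they hold counting error only and not the spread between tumours. In monocyte-like cells the level was 174.5 CPM in control and 22.4 CPM in PKCi cells, a ratio of 0.128 (0.101 to 0.161). In the main population Gpnmb was higher in PKCi, at 52.2 CPM in control and 71.9 CPM in PKCi cells, with a ratio of 1.38 (1.34 to 1.41). With a mitochondrial limit of 10% in place of 20% and the clustering redone, the macrophage-like ratio was 0.254. The intervals of the 2 libraries lay apart in these 3 of 9 named classes, and overlapped in the other 6.

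The order of the classes also differed between libraries. In the control library macrophage-like cells stood highest, followed by monocyte-like cells and then neutrophil-like cells (93.35 CPM, interval 79.2 to 109), each separated from the next by its interval. Fibroblast-like cells (55.6 CPM) and the main population followed with overlapping intervals, while T-like (6.65 CPM), NK-like (6.10 CPM) and dendritic-like cells (1 UMI) were lowest. In the PKCi library macrophage-like cells (72.45 CPM), the main population (71.9 CPM) and neutrophil-like cells (71.6 CPM) could not be separated. T-like and NK-like cells, taken as classes that should lack Gpnmb, held 9.39 and 6.90 CPM there. Monocyte-like cells of the PKCi library, at 22.4 CPM with an interval from 17.9 to 27.7, overlapped T-like cells (3.45 to 20.4). Over all kept cells together, Gpnmb was 63.1 CPM in control and 70.75 CPM in PKCi cells, so the lower level in the myeloid classes was not visible in the sum.

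**Figure D1:**
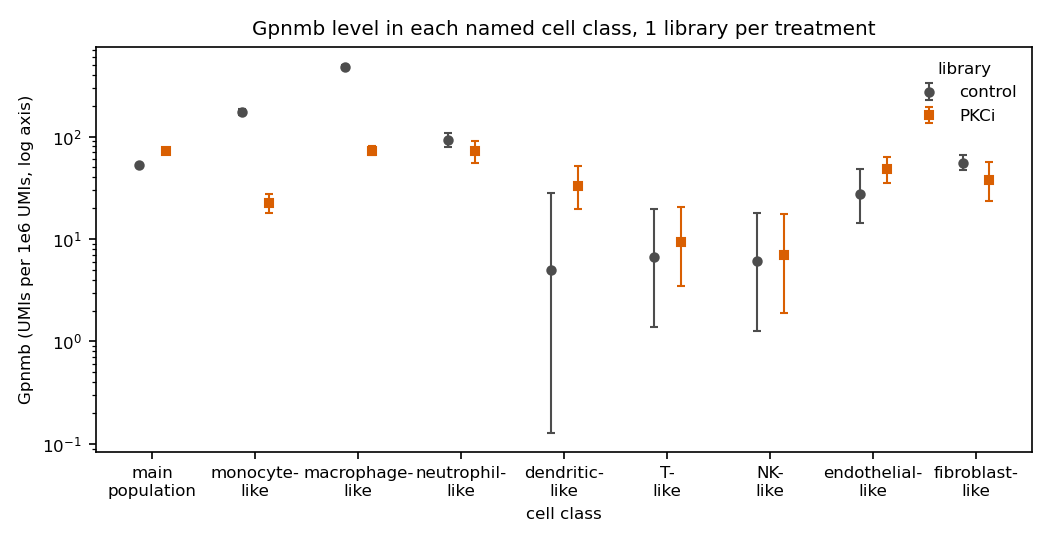
Gpnmb level (UMIs per 1e6 UMIs of the class, log axis) in the 9 named cell classes of the control (circles) and PKCi (squares) libraries, with exact Poisson 95% intervals for counting error. Macrophage-like cells sit at 474 CPM in control and 72.45 CPM in PKCi, monocyte-like cells at 174.5 and 22.4 CPM, and the main population at 52.2 and 71.9 CPM.

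The share of cells with at least 1 Gpnmb UMI was lower in PKCi macrophage-like and monocyte-like cells. With each cell thinned to 5000 UMIs, Gpnmb was detected in 55.8% of 217 control macrophage-like cells (interval 48.9 to 62.5) and in 17.7% of 362 PKCi cells (13.9 to 22.0). Thinning dropped 9 control and 39 PKCi cells that were shallower, and the unthinned shares were 67.3% and 28.9%. In monocyte-like cells the thinned share was 22.3% of 431 control and 6.05% of 347 PKCi cells. T-like cells, taken as the background class, had Gpnmb in 3.45% of 29 control and 4.65% of 43 PKCi cells. The interval of the PKCi monocyte-like cells, 3.785 to 9.10, reaches down to that background. In the main population the thinned share was 20.3% and 24.9%. In neutrophil-like cells the thinned share was 12.9% of 70 control and 50% of 18 PKCi cells of enough depth. The level there was lower in PKCi with overlapping intervals. Thinning dropped 224 control and 169 PKCi neutrophil-like cells, and the unthinned shares were 9.86% and 9.63%. In fibroblast-like cells the thinned share was 19.3% of 57 and 34.6% of 26 cells, with overlapping intervals. Their unthinned shares were 60.7% and 46.4%, in the direction of the level. In NK-like cells the thinned share was 4.35% of 23 control cells and 0 of 42 PKCi cells, and the interval of the latter reaches up to 8.41%. In macrophage-like cells the thinned share with Fabp5 was 92.6% in control and 78.2% in PKCi, that with Lpl 26.7% and 34.8%, and that with Cd36 38.7% and 54.4%. Lgals3 was present in 100% and 98.3% of these cells, so its lower level came with fewer UMIs per cell.

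Among the receptors for lipid uptake, Trem2 and Cd36 differed in direction in macrophage-like cells. Trem2 was 432.5 CPM in control and 320.2 CPM in PKCi macrophage-like cells, a ratio of 0.740 (0.692 to 0.792), and 158 and 179 CPM in monocyte-like cells, a ratio of 1.14 (1.02 to 1.27) that turned to 0.99 at the stricter mitochondrial limit. Trem2 was low elsewhere, with 0.804 and 1.13 CPM in the main population and at most 18.2 CPM in any other named class. Cd36 was 224.5 CPM in control and 386 CPM in PKCi macrophage-like cells, a ratio of 1.72 (1.59 to 1.86). In monocyte-like cells Cd36 was lower in the PKCi library, at 139.8 against 93.8 CPM, with a ratio of 0.671 (0.587 to 0.766), but this turned to 1.24 without doublet removal and 1.12 at the stricter mitochondrial limit. Endothelial cells are known to express Cd36, and endothelial-like cells held 127 CPM in control and 50.7 CPM in PKCi.

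Of the genes that handle lipid inside or outside the cell, Fabp5 and Plin2 were lower in both myeloid classes of the PKCi library and Lpl was higher in both class sums. Fabp5 was 1821 CPM in control and 723 CPM in PKCi macrophage-like cells, a ratio of 0.397 (0.382 to 0.413), and 1111 and 402 CPM in monocyte-like cells, a ratio of 0.362 (0.341 to 0.383). In dendritic-like cells Fabp5 was 1171 CPM in control and 1357.5 CPM in PKCi, a ratio of 1.16 whose interval runs from 0.9999 to 1.35. Plin2 was 732 CPM in control and 444 CPM in PKCi macrophage-like cells, a ratio of 0.606 (0.574 to 0.640) that was 0.779 with the mix of macrophage sub-clusters held equal, and 957 and 434 CPM in monocyte-like cells, a ratio of 0.454 (0.428 to 0.481). In neutrophil-like cells Plin2 was 989 CPM in control and 440.5 CPM in PKCi, a ratio of 0.445 (0.399 to 0.496). Of the 9 named classes Plin2 was lower in 8, with intervals apart in 6, and higher in fibroblast-like cells (51.6 to 88.5 CPM). In T-like, NK-like and fibroblast-like cells its level was under 10% of that in its highest class.

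Lpl was 129.6 CPM in control and 293 CPM in PKCi macrophage-like cells, a ratio of 2.26 (2.05 to 2.50) that turned to 0.856 with the mix of macrophage sub-clusters held equal in both libraries. In monocyte-like cells Lpl was 66.8 and 149 CPM, a ratio of 2.23 (1.93 to 2.58). Of the other classes fibroblast-like cells had the highest Lpl level of the PKCi library, at 138 CPM (81 UMIs) and a ratio of 6.89 (4.787 to 10.01) to the control level (50 UMIs). Apoe was 4519.7 CPM in control and 4044 CPM in PKCi macrophage-like cells, a ratio of 0.895 (0.8772 to 0.9125), which turned to 1.24 where sub-clusters were not joined and 1.02 with their mix held equal. In monocyte-like cells the Apoe level was 673 CPM in control and 373 CPM in PKCi, a ratio of 0.5545 (0.520 to 0.591). Apoe was far lower in every other class, with at most 148 CPM.

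The secreted and surface proteins were not alike. Lgals3 was 3478 CPM in control and 1669.5 CPM in PKCi macrophage-like cells, a ratio of 0.480 (0.467 to 0.493), and 4696.5 and 2428 CPM in monocyte-like cells, a ratio of 0.517 (0.504 to 0.530). Lgals3 was also lower in PKCi neutrophil-like cells (1238 to 562 CPM) and dendritic-like cells (1721 to 791 CPM). It was higher in T-like cells (204 to 319 CPM), where it reached only 6.80% of its highest class. In the main population Lgals3 stood at 317 CPM in both libraries. Spp1 was 2112 CPM in control and 785 CPM in PKCi macrophage-like cells, a ratio of 0.372 (0.358 to 0.386). In monocyte-like cells Spp1 was nearly level, at 3930.2 and 3758 CPM, with a ratio of 0.956 (0.935 to 0.978), and its direction turned in 2 of 8 alternatives. Spp1 was also high in 2 small classes of the control library, at 4679 CPM in NK-like and 4171 CPM in fibroblast-like cells, against 1612 and 1460.4 CPM in PKCi. It was higher in PKCi neutrophil-like cells (1297 to 1631 CPM). In dendritic-like (30.02 to 343 CPM) and endothelial-like cells (104 to 362 CPM) it was also higher, at only 7.32% and 7.74% of its highest class. The control level of dendritic-like cells rests on 6 UMIs. After thinning, the PKCi dendritic-like cells had a mean of 1.19 Spp1 UMIs per cell and a maximum of 24. The thinned shares of dendritic-like cells with Spp1, 15% in control and 35.1% in PKCi, had overlapping intervals. Over the 9 named classes Spp1 was lower with intervals apart in 4 and higher in 4. Cd9 showed the smallest differences, with 333 and 360.5 CPM in macrophage-like cells and 706.5 and 725 CPM in monocyte-like cells, ratios of 1.08 and 1.03 whose direction turned in 6 of 13 and 2 of 8 alternatives. Cd9 was highest in neutrophil-like cells of both libraries, at 1548 CPM in control and 1353 CPM in PKCi.

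Counted together, 7 of the 10 genes differed by at least 1.5-fold with intervals apart in macrophage-like cells. Lpl and Cd36 were higher in the PKCi library, and Gpnmb, Spp1, Fabp5, Lgals3 and Plin2 were lower. Over the 3536 genes with at least 50 UMIs over both libraries and 50 CPM in at least 1, 8.80% were higher and 3.34% lower by this rule, 12.1% in all. In monocyte-like cells 6 of the 10 differed, Lpl higher and Gpnmb, Fabp5, Apoe, Lgals3 and Plin2 lower, beside 8.32% higher and 7.55% lower, 15.9% in all, of 3247 genes. The median log2 ratio of the 10 genes was -0.58 in macrophage-like and -0.71 in monocyte-like cells, and that of all genes 0.04 and 0.12. Ranked from the lowest ratio, Gpnmb was number 5 of 3536 genes in macrophage-like and number 6 of 3247 in monocyte-like cells. The genes nearest the lower bound in macrophage-like cells were Plin2 at 0.606, inside, and Trem2 at 0.740, outside. Because the genes were chosen on this contrast, nothing is read from these counts or ranks.

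**Figure D2:**
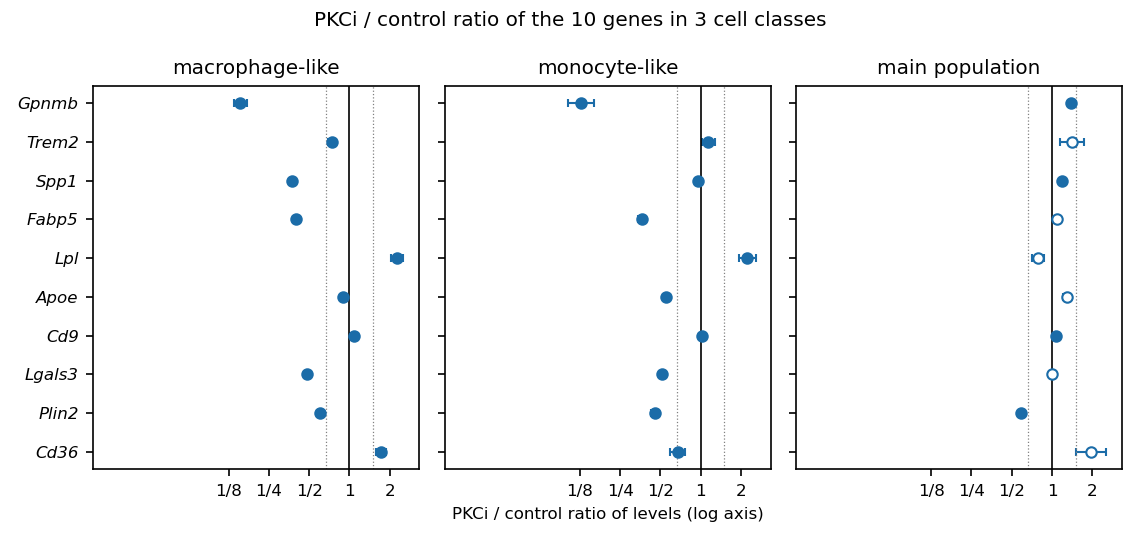
Ratio of PKCi to control levels (log axis) of the 10 genes in macrophage-like cells, monocyte-like cells and the main population, with exact 95% intervals; the solid line is a ratio of 1, dotted lines are 1.5-fold, and open circles mark levels under 10% of the class with the highest level. Gpnmb lies at 0.153 and 0.128 in the myeloid classes and at 1.38 in the main population, and Plin2 lies below 1 in all 3.

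Several other measures of macrophage-like cells are given beside these differences. Of 4 markers of the main population 3 had UMIs, with sums of 69.7 CPM in control and 90.8 CPM in PKCi and none at 50 CPM. All 7 monocyte markers had UMIs, summing to 177 and 201 CPM. Of 7 neutrophil markers 7 had UMIs in control and 5 in PKCi, with sums of 1014 and 1028 CPM, of which Mmp9 alone gave 903 and 982 CPM. Of 8 dendritic markers 5 and 8 had UMIs, summing to 15.5 and 34.2 CPM. The part of these and of the depth in the results was not tested. When the profile of the main population, scaled by Krt8, was subtracted in each library, the Gpnmb ratio was 0.143. Among cells with at least 3 of 12 G2/M genes after thinning (34 control, 62 PKCi), Gpnmb was 286 and 55.8 CPM, and among the remaining 183 and 300 cells it was 537 and 77.7 CPM, and the level was lower in PKCi in both. In monocyte-like cells the sum of monocyte markers was 2702 CPM in control and 2032 CPM in PKCi, that of macrophage markers 2391 and 1932.5 CPM, and that of neutrophil markers 1064 and 529.6 CPM, and their part in the lower Gpnmb there was not tested.

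Macrophage-like cells were made up of different sub-clusters in the 2 libraries, and 6 sub-clusters scored as macrophages, lettered A to F, were therefore compared one by one. Sub-cluster A, led by Ppbp, Mmp13 and Pf4, held 105 control and 28 PKCi cells, which is 46.5% and 6.98% of macrophage-like cells. Sub-cluster F, led by Lyz1, Slc7a2 and Vsig8 and with Lpl and Cd36 among its first 10 genes, held 5 and 124 cells, or 2.21% and 30.9%. B (31 and 47 cells) and D (54 and 116 cells) shared Cbr2, Ccl8 and Lyve1, and C (31 and 86 cells) was led by Cxcl9, H2-Aa and H2-Eb1. E (3 and 116 cells), led by Trf, Cacna1d and Cd36, was kept out of the macrophage-like class because its first 10 genes held a neutrophil marker, Mmp9, and no macrophage marker. Values of E and F in the control library rest on 3 and 5 cells.

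Gpnmb was lower in the PKCi library in 6 of 6 sub-clusters, with intervals apart in each. Among all genes tested, 2.94% were lower by 1.5-fold with intervals apart in A, 3.36% in B, 5.14% in C, 4.80% in D, 5.65% in E and 5.69% in F. The shares higher by that rule were 5.07% in A, 8.98% in B, 10.7% in C, 8.97% in D, 4.32% in E and 3.30% in F. The levels were 632 and 204 CPM in A, 171.5 and 14.8 CPM in B, 321 and 60.5 CPM in C, 458 and 92.3 CPM in D, 331 and 118 CPM in E, and 263 and 63.2 CPM in F. The ratios ran from 0.0861 in B to 0.356 in E. In the control library A held the highest Gpnmb level and B the lowest, and A was also highest by level in the PKCi library. That PKCi level of A rests largely on a single cell. After thinning, Gpnmb was found in 3 of 21 PKCi cells of A, with a mean of 1.19 UMIs per cell and a maximum of 23. By the thinned share of PKCi cells with Gpnmb, A (14.3%) was not highest, and stood below D (23.8%) and E (23.9%) but above B (7.5%). With the same mix of the 5 joined sub-clusters given to both libraries, an alternative chosen after seeing the data, the Gpnmb ratio of macrophage-like cells was 0.241.

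Fabp5 and Lgals3 were also lower in 6 of 6 sub-clusters with intervals apart. By the 1.5-fold rule of the shares given above, each was lower in 4 of 6, and Gpnmb in 6 of 6. Fabp5 ratios ran from 0.321 in D (2103 to 675 CPM) to 0.793 in C (934.5 to 741 CPM). Lgals3 ratios ran from 0.421 in D (3548 to 1494 CPM) to 0.774 in A (4058 to 3139.5 CPM). Trem2 was lower in all 6, with intervals apart in 5 and past 1.5-fold in 3, and its smallest difference was in D (461 to 440.1 CPM). Apoe differed with intervals apart in all 6 but in both directions, lower in C (7597 to 4927 CPM) and E (5275 to 2593 CPM) and higher in A, B, D and F. Its level was highest in B, at 8197 CPM in control and 9163 CPM in PKCi, and lowest in F, at 291 and 759 CPM. Cd9 was lower in 3 sub-clusters and higher in 3, with ratios from 0.706 to 1.41.

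Lpl, higher in macrophage-like cells as a whole, was not higher throughout. It was 129 CPM in control and 27.0 CPM in PKCi cells of A, 59.3 and 57.0 CPM in B, 84.6 and 71.8 CPM in D, and 733 and 563.5 CPM in F. Only C (169 to 287 CPM) and E (27.6 to 127 CPM, the former from 2 UMIs) were higher with intervals apart. F held the highest Lpl level in both libraries and held 2.21% of control and 30.9% of PKCi macrophage-like cells. With the mix held equal, the log2 ratio of Lpl was -0.22, against 1.18 for the class as it stood, and this value rests in part on the 5 control cells of F.

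Cd36 was higher with intervals apart in 4 sub-clusters, A (244 to 370.3 CPM), C (168 to 285 CPM), D (219.5 to 339.5 CPM) and E (235 to 474 CPM). In B it was 171.5 and 122 CPM and in F 526 and 571 CPM, with overlapping intervals. Spp1 was by far highest in A, at 3899 CPM in control and 3116 CPM in PKCi, and at most 1478 CPM in any other sub-cluster of either library. Its ratio was 0.372 in the class and 0.768 with the mix held equal. Plin2 had ratios from 0.648 to 1.19 over the 6, and 0.779 with the mix held equal. Under that setting 3 of the 10 genes were past 1.5-fold, all lower, in place of 7, and of all 3536 genes tested 5.43% were higher and 2.23% lower. In a class sum, more or fewer cells of a sub-cluster and more or less RNA per cell cannot be told apart.

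**Figure D3:**
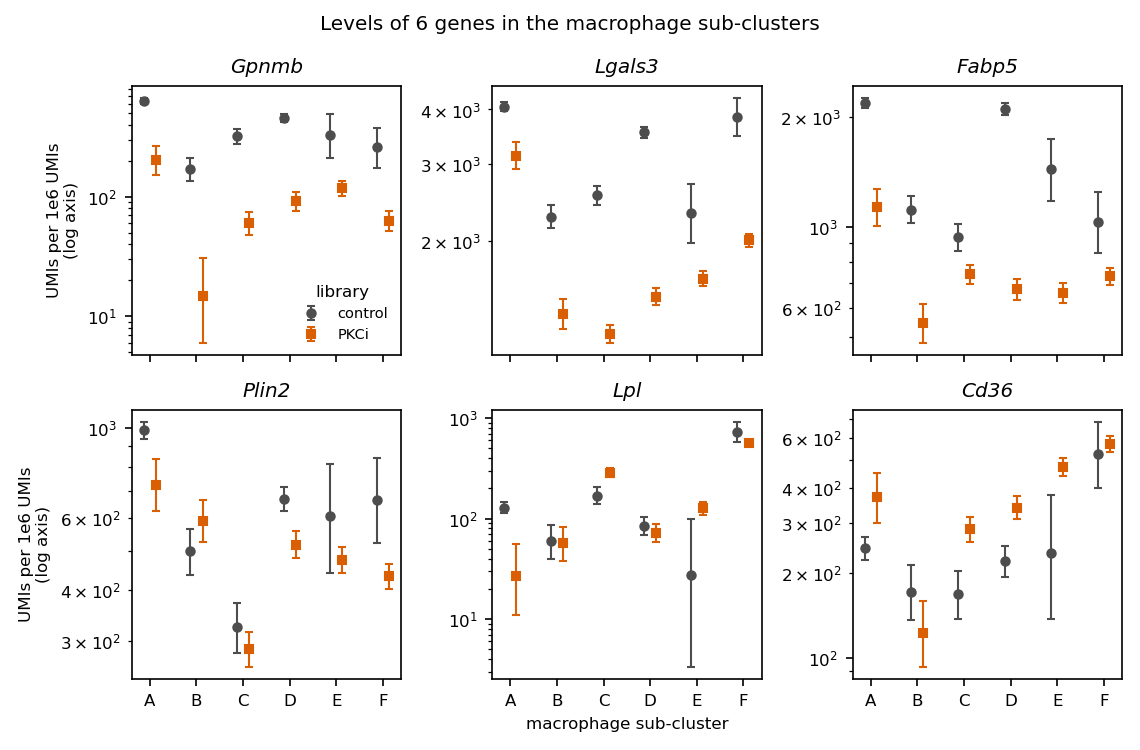
Levels (UMIs per 1e6 UMIs, log axes that do not start at 0) of Gpnmb, Lgals3, Fabp5, Plin2, Lpl and Cd36 in macrophage sub-clusters A to F of the control (circles) and PKCi (squares) libraries, with exact Poisson 95% intervals. Gpnmb, Lgals3 and Fabp5 are lower in PKCi in 6 of 6 sub-clusters, whereas Lpl is lower in A, at 27.0 against 129 CPM, and higher in C and E.

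In the main population, 4 of the 10 genes reached 10% of their highest class, a bound below which free RNA from other cells can give a level. Among these, Plin2 was 123 CPM in control and 71.6 CPM in PKCi cells, with a ratio of 0.582 (0.5705 to 0.594), and was number 9 from the lowest of 3424 genes. Gpnmb (52.2 to 71.9 CPM), Spp1 (1059 to 1257 CPM, ratio 1.19) and Cd9 (537 to 572 CPM, ratio 1.07) were higher in PKCi but by under 1.5-fold. Of the 5 genes that passed the minimum of level, Plin2 alone was past 1.5-fold, beside 0.555% higher and 0.438% lower, 0.993% in all, of the genes tested. Gpnmb was number 34 from the highest ratio. In neutrophil-like cells Fabp5, Lgals3 and Plin2 were lower by the same rule among 6 genes that passed, Fabp5 at 8.82% of its highest class, where 23.9% of 3520 genes were higher and 7.95% lower, 31.8% in all. Neutrophil-like cells were shallow, with medians of 3408 and 2051 UMIs, and held 121 and 288 CPM of Krt8, and their own 7 neutrophil markers summed to 95181.5 CPM in control and 20889.8 CPM in PKCi. Their monocyte markers summed to 749 and 386 CPM, and the part of these values in the ratios was not tested.

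Because the main population held most cells and most RNA, it also held most UMIs of some of the genes. The share of Gpnmb UMIs that lay in it was 76.55% in the control and 93.6% in the PKCi library, while the share in macrophage-like cells was 14.3% and 2.40% and in monocyte-like cells 5.49% and 0.538%. Trem2 UMIs lay mostly in macrophage-like cells, 63.8% and 52.7%, and a further 1.855% and 13.8% lay in sub-cluster E. Apoe and Cd36 had a similar origin, with 73.7% and 69.2% of Apoe and 52.2% and 57.7% of Cd36 in macrophage-like cells. Spp1 and Cd9 lay mostly in the main population, 83.3% and 90.7% for Spp1 and 91.7% and 93.0% for Cd9. Plin2 kept the same share there, 72.3% in both libraries.

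**Figure D4:**
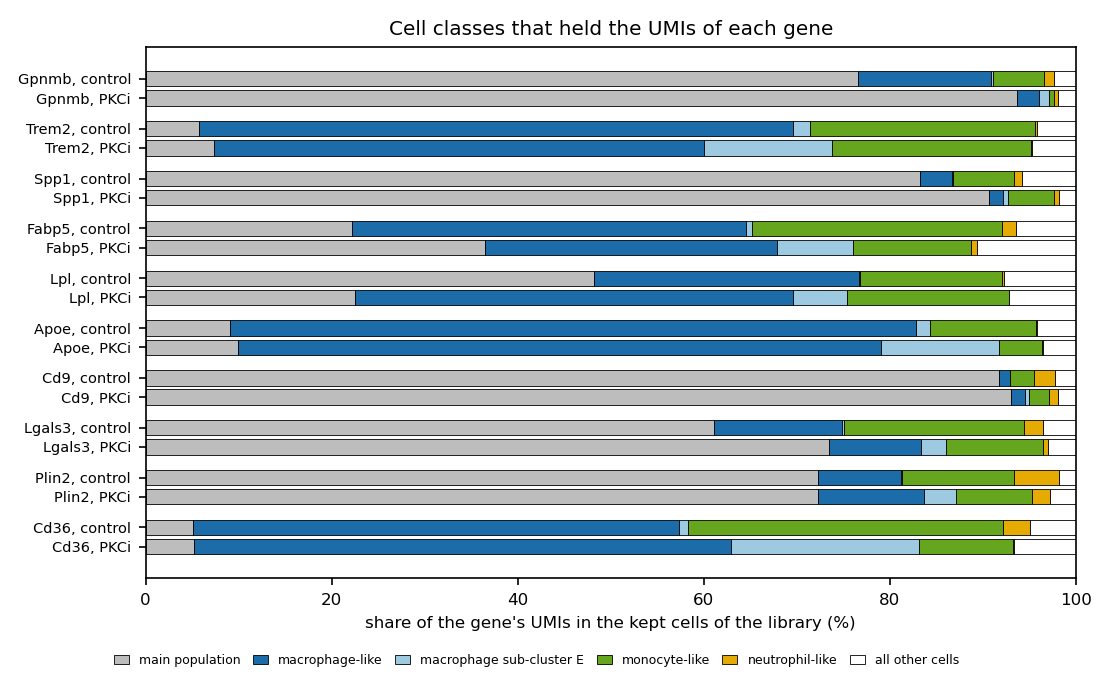
Share (%) of the UMIs of each of the 10 genes that lay in each cell class, among the kept cells of the control (upper bar) and PKCi (lower bar) library; macrophage sub-cluster E, which is not part of the macrophage-like class, has its own colour. The main population holds 76.55% of Gpnmb UMIs in control and 93.6% in PKCi, and macrophage-like cells hold 14.3% and 2.40%.

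Across single cells, pairs of the genes varied together only weakly to moderately. Over 217 control macrophage-like cells thinned to 5000 UMIs, Gpnmb had Spearman correlations of 0.415 with Lgals3, 0.316 with Cd9, 0.303 with Fabp5 and 0.251 with Plin2, and of 0.132 with Trem2 and 0.0095 with Apoe. Over the 362 PKCi cells each of its correlations lay between -0.0259 (Lpl) and 0.103 (Trem2). Apoe stood opposite to Lpl and to Cd36 in PKCi macrophage-like cells, at -0.364 with each, and Lpl and Cd36 correlated at 0.339. Sub-cluster F gave 117 of these 362 cells. In the PKCi library it had the lowest Apoe and the highest Lpl and Cd36 levels of the sub-clusters. Its part in these correlations was not tested. In control monocyte-like cells the highest value was 0.514, for Lgals3 with Plin2. These cells share a library and equal depth, low levels weaken a rank correlation, and the values are given without a p.

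Related genes, listed by function, did not follow Gpnmb as a group in macrophage-like cells. Counts below are of genes at 10% or more of their highest class with at least 20 UMIs, and the same rule over 11049 genes of macrophage-like cells called 7.23% higher and 3.17% lower, with a median log2 ratio of 0.05. Of 11 other genes of lipid-associated macrophages, 3 were higher and 2 lower (median -0.09). The receptor tyrosine kinase Axl was 25.9 CPM in control and 113 CPM in PKCi, the integrin Itgax 21.3 and 62.5 CPM, the lysosomal protease Ctsl 3704 and 1792 CPM, and the lysosomal protein Cd68 719 and 412.5 CPM. The other higher gene, named after its values were seen, was the adhesion molecule Cadm1 (12.8 to 26.95 CPM). Among 26 MITF and TFE factors and lysosome genes 1 was higher and 1 lower (median -0.01). Mitf itself was 144 and 151 CPM. The sphingolipid activator Psap was 2799 and 4572 CPM, and the protease Ctsk 92.4 and 31.0 CPM. In monocyte-like cells 0 of 25 genes of that list were higher and 3 lower, where 7.75% of 10347 genes were higher and 4.57% lower. The median log2 ratio of the list there was -0.16, in the direction of Gpnmb, and that of the 10347 genes 0.16. The lower genes were the phosphatase Acp5 (32.3 to 8.96 CPM), the galactosidase Gla (77.5 to 37.4 CPM) and, named after its values were seen, the transcription factor Tfec (74.9 to 39.3 CPM). Of 12 other genes of lipid-associated macrophages, 4 were higher and 4 lower in monocyte-like cells (median 0.09).

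Most genes of cholesterol export and of fatty acid use were past 1.5-fold with intervals apart in neither direction in macrophage-like cells. None of 12 LXR and cholesterol efflux genes was called by this rule (median 0.22). The medians of the PPAR and lipid droplet lists below were 0.14 and 0.20. All 3 medians lay above the 0.05 of all genes. The sterol sensor Nr1h3 was 11.6 and 17.4 CPM and the cholesterol exporter Abca1 407.5 and 480.0 CPM. Among 12 PPAR and fatty acid oxidation genes 1 was higher, the mitochondrial carrier Ucp2 (403 to 660.4 CPM), and Pparg was 11.4 and 12.8 CPM. Of 14 lipid droplet and triglyceride genes 2 were higher, Acsl4 (88.8 to 166 CPM), which activates long fatty acids, and Lpin1 (19.1 to 29.1 CPM). Hilpda, an inhibitor of droplet lipolysis, was 587 and 457 CPM, and none of the 14 was lower by 1.5-fold. In the main population 1 of 8 LXR genes was higher, the exporter Abcg1 (10.1 to 20.6 CPM), and 1 of 11 PPAR genes was lower, Angptl4 (20.1 to 11.7 CPM), an inhibitor of lipoprotein lipase, where 2.65% of 17645 genes were higher and 3.40% lower by the same rule.

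In the lists of TREM2 partners, osteopontin and GPNMB receptors, tetraspanins and galectins, most genes were past 1.5-fold in neither direction in macrophage-like cells. By the same rule 7.23% of 11049 genes of that class were higher and 3.17% lower. Single calls in lists this short are not read as a result about the list. Among scavenger receptors in macrophage-like cells, Olr1 (17.2 to 42.6 CPM) and the efferocytosis receptor Mertk (76.7 to 139.9 CPM) had the highest ratios, and Stab1 was lower (496 to 318 CPM). Of 8 TREM2 partners and paralogues only the protease Adam10 was higher (92.15 to 140.1 CPM), and the adaptor Tyrobp was 1329 and 1248 CPM. Of 8 osteopontin and GPNMB receptors only Itga4 was higher (27.3 to 52.4 CPM), and Cd44 was 838 and 1007 CPM. Among 9 tetraspanins only Cd81 was higher (305 to 512 CPM). Among 4 galectin genes only Lgals1 was lower (2719 to 1527.5 CPM), in the direction of Lgals3. Of the fatty acid binding proteins Fabp7 alone could be read, at 1.21 and 5.735 CPM from 5 and 30 UMIs. Of 12 G2/M genes 6 were lower and none higher (median -0.59), with the lowest ratio in the kinetochore gene Cenpf (46.2 to 26.2 CPM). The share of thinned cells with at least 3 of these genes was not lower in PKCi, at 34 of 217 control and 62 of 362 PKCi cells.

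The genes whose levels rose and fell most like those of Gpnmb were found over 5 classes in 2 libraries, 10 values in all, among 5626 genes. A correlation compares the shape of the profiles and not the level or the size of the differences. The 8 highest Pearson correlations of log2(CPM + 1) were with Dtnbp1 (0.927), Nceh1 (0.922), Atp6v1d (0.911), Gpr137b (0.8895), Rgl1 (0.881), Arhgap10 (0.876), Nt5dc2 (0.876) and Specc1 (0.872). Dtnbp1 was 143 CPM in control and 103 CPM in PKCi macrophage-like cells and 87.0 and 73.8 CPM in monocyte-like cells. Nceh1, a cholesterol ester hydrolase, was 137 CPM in control and 98.4 CPM in PKCi macrophage-like cells and 84.9 and 36.9 CPM in monocyte-like cells. Of the other 9 genes described here Plin2 came closest to Gpnmb, at 0.742 and rank 107. Plin2 itself was most like the ferritin chain Fth1 (0.983), Cdc42ep2 (0.980), Saa3 (0.976) and Cstb (0.973), and Fth1 was 5234 CPM in control and 3473 CPM in PKCi cells of the main population. The 10 values share 2 libraries and are not independent, so no p is given.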

How the data were processed

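Single-cell 3′ RNA libraries were deposited for 1 control and 1 PKCi sample. The deposited values are raw UMI counts per gene and cell barcode, written by Cell Ranger 7.0.0 per the file headers. The submitters' processing notes name GRCm38, Cell Ranger and Seurat, in no stated order or role.

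Cells with under 500 genes or over 20% mitochondrial UMIs were left out, and doublets marked per library with Scrublet (expected rate 6%) were removed: 111 (1.74%) control and 132 (1.83%) PKCi cells. Cells were clustered with scanpy 1.11.5 (2000 variable genes without the 10 genes and the lists, 30 components, 15 neighbours, Leiden resolution 1.0). Clusters were named from marker genes, and mixed clusters were split at resolution 0.5. Sub-clusters of one best class were joined again unless another class had more markers among their top 10 genes, a rule set after seeing the data. A total of 193 control and 368 PKCi cells stayed unnamed.

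Each level is the sum of a gene's UMIs in a class of a library, relative to all UMIs of those cells. With 1 library per treatment there is no test. Exact Poisson and Clopper-Pearson intervals at 95% were computed with scipy 1.17.1, and they treat UMIs as independent. For shares of cells and correlations each cell was thinned to 5000 UMIs. The ratio code was tested on simulated data.

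The 10 genes and all lists were chosen with earlier results of these data known. From each list the text names at most the 2 highest and 2 lowest ratios per class among genes with at least 20 UMIs and 10% of their highest class, besides Tyrobp, Mitf, Nr1h3, Pparg, Abca1 and Cd44. The counts of 1 list are not reported here. Alternatives covered clustering, filters, doublets, thinning, cell weight, scaling, free RNA and thresholds, with 3 on the macrophage sub-clusters added after seeing the data. Promoter sequences and starts are from RefSeq, GRCm38.p6.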

Additional observations from a re-analysis of the deposited data

How the results depend on the processing

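The Gpnmb log2 ratio in macrophage-like cells, -2.71 as reported, kept its direction in 13 of 13 alternatives. It was -2.42 with the 10 genes and the lists kept for clustering, -2.29 at resolution 0.5, -1.98 at a limit of 10% mitochondrial UMIs, -2.37 without doublet removal and -2.32 for cells taken by C1q genes alone. Of the alternatives added after seeing the data, it was -2.51 with sub-cluster E and -2.05 with the sub-cluster mix held equal. The same mix gave 3 genes past 1.5-fold, all lower, in place of 7, where 2.23% of all genes were lower and 5.43% higher, and turned Lpl from 1.18 to -0.22. This setting gives each library other weights of sub-clusters, and in the rest the cause was not tested. The Plin2 log2 ratio in the main population, -0.78, was -0.73 as a mean over cells and -0.87 without cycling cells. In that population 2 genes were past 1.5-fold without the CPM minimum and 0 at 2-fold, in place of 1. In monocyte-like cells Gpnmb kept its direction in 8 of 8 alternatives, from -3.46 to -2.34, and Spp1, Cd9 and Cd36 in 6 of 8. Median-of-ratios scaling shifted all log2 ratios by 0.15 in monocyte-like cells, 0.03 in macrophage-like cells and -0.02 in the main population. Resolution 0.5 gave no monocyte-like class. No paired analysis was possible because there was 1 library per treatment, and leaving out a replicate was not possible for the same reason. Depth limits the small classes and the control cells of sub-clusters E and F, which number 3 and 5.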
